A study of Rattus norvegicus with 8 samples.

Results

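Granins and the enzymes that mature prohormones were followed as 10 genes of the dense-core vesicle, the neuronal organelle that stores and releases peptides: the granins Chga, Chgb, Scg2, Scg3 and Vgf, the processing enzymes Pcsk1, Pcsk2 and Cpe, and the convertase-binding proteins Scg5 and Pcsk1n. They were chosen by symbol in the authors' deposited table and joined by Ensembl identifier to the gene counts, which gave 11 identifiers of 32623, because the symbol Pcsk1n stands beside 2 gene models. All 10 genes were among the 11740 identifiers that passed the low-count filter; of the Pcsk1n models, 1 passed and the other did not. Polyadenylated RNA came from hippocampal neuronal cultures of wild-type SD rats after 18 days in vitro. The PAM group holds 4 libraries of cultures that received a positive allosteric modulator (PAM), which makes the NMDA-type glutamate receptor respond more strongly to its agonists, and the vehicle group holds 4 libraries of cultures that received vehicle. All cultures shared strain, genotype and age; which compound was used, how much and for how long is not stated in the labels, and nothing in the labels says that replicates are separate cultures, so p-values measure the spread between these libraries, which may be technical.

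Granins are acidic secretory proteins that aggregate in the trans-Golgi network, help to form dense-core vesicles and are themselves cut into peptides. Prohormone convertases cut precursors at paired basic residues inside the vesicle, and carboxypeptidase E removes the basic residues left behind. In hippocampal neurons the same vesicles carry neuropeptides and the neurotrophin BDNF, and several granin genes are known to respond to neuronal activity. The comparison asks whether these transcripts differed after the NMDA receptor was potentiated.

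Libraries held 2960406 to 4389430 gene counts. Levels are given in CPM, counts scaled by library size, and a gene with 0 counts could have been at up to 0.684 to 1.01 CPM (3 counts of the library's total, counting error only). In PAM 3 and PAM 4, counts fell with exonic length, with slopes of -0.09 and -0.13 on the log2 scale for each doubling of length. In the other 6 libraries the slopes were 0.01 to 0.06. Values without these 2 libraries are therefore given beside the results. Of the neuron markers, 9 of 10 were matched to a gene model and 6 fell and 0 rose, with a summed level of 3337 to 3613 CPM in PAM and 4591 to 5399 CPM in vehicle libraries. Of the astrocyte markers, 5 of 8 rose and 0 fell, with a summed level of 9133 to 11110 CPM in PAM and 6237 to 6564 CPM in vehicle libraries. The cultures thus held glial RNA in both groups, and in bulk RNA fewer cells of a type and less RNA per cell cannot be told apart.

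PAM libraries had more Scg2 and Scg3 transcript and less Chga, Chgb and Pcsk2 transcript than vehicle libraries, so the granins did not move as 1 block. Scg2 was 1.47-fold and Scg3 1.25-fold the vehicle level, while Chga was at 0.70-fold, Chgb at 0.78-fold and Pcsk2 at 0.81-fold. Vgf, Cpe, Scg5, Pcsk1 and Pcsk1n did not pass the test (edgeR's quasi-likelihood test with Benjamini-Hochberg adjustment over all genes, adjusted p under 0.05). In all, 5 of the 10 genes were called, 2 higher and 3 lower, against 18.9% of all tested genes (9% higher and 9.89% lower). Their median log2 fold change was -0.19, against 0.02 over all genes tested. The groups did not overlap for 6 of the 10 genes, 3 higher (Scg2, Scg3 and Cpe) and 3 lower (Chga, Chgb and Pcsk2), against 22.3% of all tested genes (10.3% higher and 12% lower). The standard error (SE, log2) of these 6 genes was 0.09 to 0.12, against a median of 0.202 over all tested genes. Smaller changes could thus be called in them than in a typical gene, so these shares do not compare like with like. Of the 5 calls, those of Scg2 and Chga held in each of the 17 alternative fits, which include those with 1 library left out. Without PAM 3 and PAM 4, 8 of the 10 genes passed, 3 higher (Scg2, Scg3 and Cpe) and 5 lower (Chga, Chgb, Vgf, Pcsk2 and Scg5), against 23.7% of the genes tested there (11.2% higher and 12.5% lower).

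**Figure D1:**
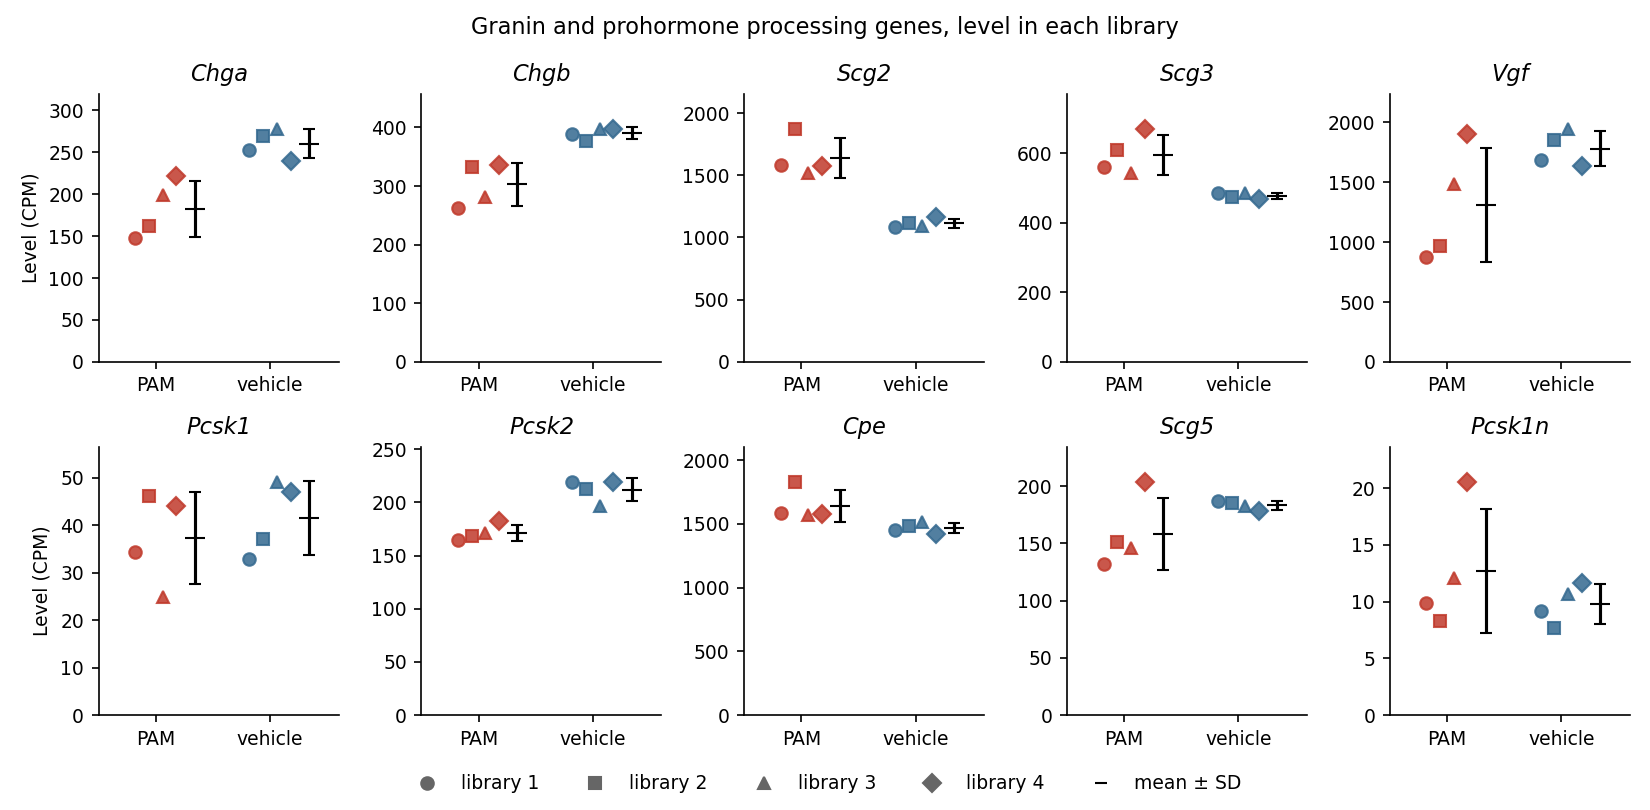
Level of each of the 10 genes in CPM (vertical axis, from 0) in the 4 PAM and 4 vehicle libraries; symbols mark the library number and black bars the mean ± SD. All PAM libraries lie above all vehicle libraries for Scg2, Scg3 and Cpe and below them for Chga, Chgb and Pcsk2, and Vgf spreads from 879 to 1901 CPM among the PAM libraries.

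Scg2 encodes secretogranin II, the precursor of the peptide secretoneurin. It lies on Rnor_6.0 chromosome 9, 85237458 to 85243001, minus strand. Its promoter and that of Vgf are shown because each holds the full cyclic AMP response element, the site bound by CREB, and the 2 genes behaved differently in these libraries. The lines give 30 bases on the gene's strand (GRCr8, RefSeq; Scg2 at chr9:88256971-88257000 and Vgf at chr12:25277092-25277121, both minus strand), with the element in capitals.
Scg2: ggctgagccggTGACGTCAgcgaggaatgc
Vgf: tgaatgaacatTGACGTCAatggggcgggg
The element starts at base -123 of Scg2 and at base -90 of Vgf, counted from the start of the gene in that table. Windows of 250 bases before to 50 bases after the start were matched for 8 of the 10 genes. No window was at hand for Chga and Pcsk1, so their promoters were not searched. The letters TGACGTCA, which read the same on both strands, were found in 2 of them and in 1.83% of 33469 such windows. The shorter half-site TGACG, searched on both strands and contained in the full element, was found in 6 of the 8 windows and in 21.2% of all. The 33469 windows were not limited to the genes tested here, so these shares come from unlike sets. A match is a string of letters, and no binding was measured here.

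Scg2 was at 1579, 1876, 1521 and 1573 CPM in PAM 1 to 4, against 1085, 1115, 1094 and 1161 CPM in vehicle 1 to 4. Every PAM library was above every vehicle library, and PAM 2 was the highest. This is a level 47.0% higher with PAM, a log2 fold change of 0.56 ± 0.10 (SE), at adjusted p = 5.55e-04 by edgeR with Benjamini-Hochberg adjustment. Without PAM 3 and PAM 4 it was 0.65. In the authors' deposited table the log2 fold change of Scg2 is 0.55 with an adjusted p of 9.58e-08.

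Scg3 encodes secretogranin III, which binds cholesterol-rich vesicle membrane and holds other granins there. It lies on chromosome 8, 82582352 to 82641536, minus strand. Scg3 had 561, 609, 543 and 671 CPM in PAM 1 to 4, against 486, 473, 485 and 468 CPM in vehicle 1 to 4. The vehicle values lay close together, with a coefficient of variation of 1.86% against 9.59% in PAM libraries, and the groups did not overlap. Scg3 thus had a log2 fold change of 0.32 ± 0.10 (SE; edgeR, Benjamini-Hochberg adjusted p = 0.0301), and of 0.30 without PAM 3 and PAM 4. The call ended without vehicle 1, 2, 3 or 4 or without PAM 4, with an edgeR adjusted p of 0.0235 to 0.0995 over the 8 fits that leave out 1 library.

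Chga and Chgb encode the chromogranins A and B, the classic granins of chromaffin and neuronal vesicles. Chga (chromosome 6, 126434226 to 126445568, plus strand) was at 148, 162, 199 and 221 CPM in PAM 1 to 4, against 253, 270, 278 and 239 CPM in vehicle 1 to 4. All PAM libraries were below all vehicle libraries, with PAM 1 and PAM 2 lowest. Chga had a log2 fold change of -0.51 ± 0.12 (SE; edgeR, Benjamini-Hochberg adjusted p = 0.00655), and of -0.73 without PAM 3 and PAM 4. Chgb (chromosome 3, 125428260 to 125441594, plus strand) had 263, 332, 281 and 336 CPM in PAM 1 to 4, against 390, 377, 398 and 397 CPM in vehicle 1 to 4. Here too the groups were apart, and the vehicle values varied little. Its log2 fold change was -0.37 ± 0.11 (SE; edgeR, Benjamini-Hochberg adjusted p = 0.0201) and -0.38 without PAM 3 and PAM 4. The Chgb call ended without vehicle 1, 2, 3 or 4 or without PAM 1 or PAM 3, with an edgeR adjusted p of 0.00517 to 0.0742 over the 8 fits without 1 library.

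Chgb and Chga were also compared within each library, where scaling between libraries plays no part. The count ratio of Chgb to Chga was 1.78, 2.05, 1.41 and 1.52 in PAM 1 to 4, against 1.54, 1.40, 1.43 and 1.66 in vehicle 1 to 4. The groups overlapped. The mean difference was 0.15 on the log2 scale (exact two-sided permutation test over libraries, p = 0.343; adjusted p = 0.686 over the 4 ratios compared; the smallest p that 4 against 4 libraries allow is 0.0286). It was 0.35 without PAM 3 and PAM 4 (exact two-sided permutation test, p = 0.0667, the smallest that 2 against 4 libraries allow), and ran from 0.06 without PAM 2 to 0.24 without PAM 3 when 1 library was left out.

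Vgf, first described as a transcript induced by nerve growth factor, encodes a granin-like precursor of several secreted peptides. It lies on chromosome 12, 22677607 to 22680630, minus strand. Vgf was at 879, 970, 1483 and 1901 CPM in PAM 1 to 4, against 1685, 1849, 1948 and 1636 CPM in vehicle 1 to 4. PAM 1 and PAM 2 were far below all vehicle libraries, PAM 3 was just below them, and PAM 4 lay within their range. The coefficient of variation was 36.4% in PAM and 8.11% in vehicle libraries. The log2 fold change of -0.44 ± 0.19 (SE) missed the threshold (edgeR, Benjamini-Hochberg adjusted p = 0.121), and its 95% interval before adjustment ran from -0.85 to -0.04. Omitting PAM 4 gave -0.68 (edgeR, adjusted p = 8.81e-04), and omitting PAM 3 as well gave -0.93 (edgeR, adjusted p = 8.66e-11). The 2 PAM libraries with the highest Vgf were thus the 2 with the falling length trend. With that trend removed the log2 fold change was -0.41 (edgeR, adjusted p = 0.297). Without PAM 1 it was -0.29. Limma-voom called Vgf at a Benjamini-Hochberg adjusted p of 0.044 and edgeR without a low-count filter at 0.00771, while DESeq2 gave 0.261. The authors' deposited table gives Vgf a log2 fold change of -0.45 with an adjusted p of 0.271.

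**Figure D2:**
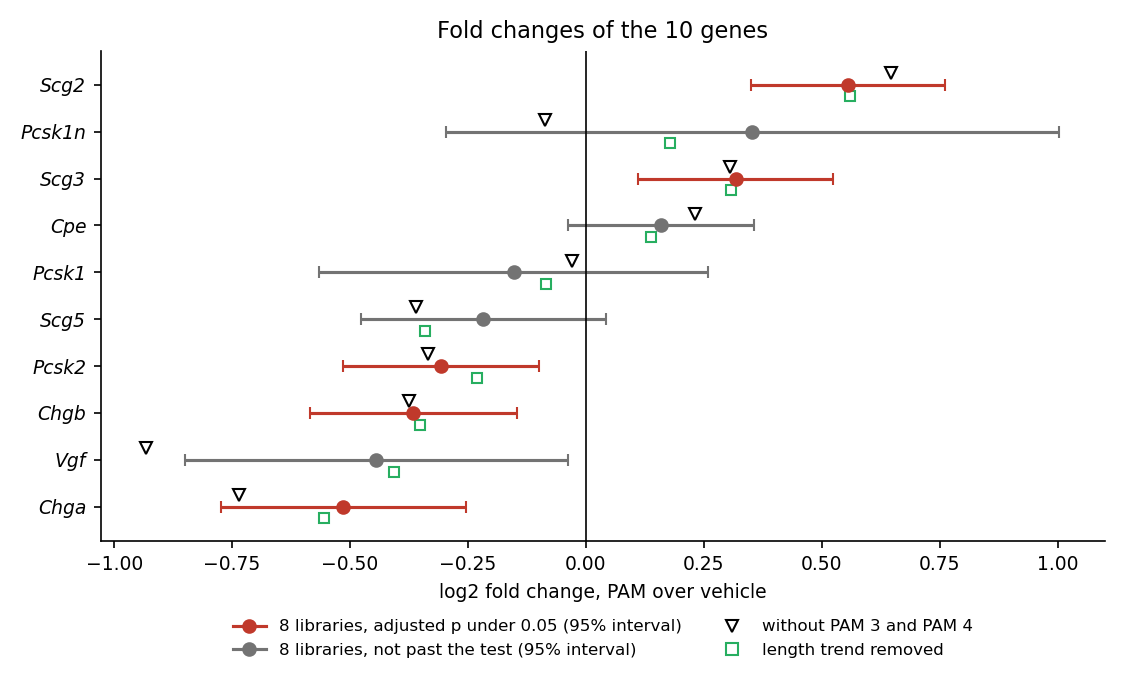
Log2 fold change of PAM over vehicle (horizontal axis) for the 10 genes, with 95% intervals from the edgeR fit on 8 libraries; red marks an adjusted p under 0.05, triangles the value without PAM 3 and PAM 4, and squares the value with the length trend removed. The triangle of Vgf lies at -0.93 against -0.44 with all libraries, and that of Pcsk1n changes sign.

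Of the processing enzymes, Pcsk2, the convertase that completes the cleavage of many neuropeptide precursors, fell modestly. The gene (chromosome 3, 137618898 to 137925605, plus strand) had 165, 168, 171 and 182 CPM in PAM 1 to 4, against 219, 213, 197 and 219 CPM in vehicle 1 to 4. The groups did not overlap, and Pcsk2 was the 1 gene of the 10 whose coefficient of variation was not higher in PAM libraries (4.32% against 4.94% in vehicle). A wider spread in PAM was not particular to these genes. Over the tested genes, chi-square per degree of freedom was 4.66 to 16.1 between PAM libraries and 2.83 to 4.19 between vehicle libraries. For Pcsk2 the log2 fold change was -0.31 ± 0.10 (SE; edgeR, Benjamini-Hochberg adjusted p = 0.0371) and -0.33 without PAM 3 and PAM 4. The call ended with the length trend removed (log2 fold change -0.23, edgeR adjusted p = 0.162), with no low-count filter, and without vehicle 1, 2, 3 or 4 or PAM 1 or PAM 3, where the edgeR adjusted p over the 8 fits without 1 library ran from 0.0203 to 0.111.

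Pcsk1, the convertase that makes the first cuts in many precursors, was the lowest of the 3 enzymes. The gene (chromosome 2, 91450162 to 91497091, minus strand) had 34.3, 46.1, 24.9 and 44.0 CPM in PAM 1 to 4, against 32.9, 37.2, 49.1 and 46.9 CPM in vehicle 1 to 4. The groups overlapped. The log2 fold change of -0.15 ± 0.20 (SE) had a 95% interval of -0.57 to 0.26 and missed the threshold (edgeR, Benjamini-Hochberg adjusted p = 0.642), and it was -0.0021 without PAM 3 and -0.03 without PAM 3 and PAM 4. The count ratio of Pcsk1 to Pcsk2 was 0.208, 0.274, 0.146 and 0.242 in PAM 1 to 4, against 0.15, 0.175, 0.25 and 0.214 in vehicle 1 to 4. These ranges overlap, with a mean difference of 0.13 on the log2 scale (exact two-sided permutation test, p = 0.657; adjusted p = 0.686 over the 4 ratios). That difference was 0.30 without PAM 3 and PAM 4. With 1 library left out it was lowest without PAM 2 (0.0056) or vehicle 1 (0.0082) and highest without PAM 3 (0.31) or vehicle 3 (0.25); without PAM 4 it was 0.07 and without vehicle 2 it was 0.08.

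Cpe encodes carboxypeptidase E, which is also made by astrocytes. The gene (chromosome 16, 26906716 to 27014813, plus strand) was at 1584, 1830, 1566 and 1578 CPM in PAM 1 to 4, against 1453, 1481, 1513 and 1424 CPM in vehicle 1 to 4. The groups did not overlap, but the gap was small and PAM 2 stood above the rest. The log2 fold change of 0.16 ± 0.09 (SE) had a 95% interval of -0.04 to 0.36 and missed the threshold (edgeR, Benjamini-Hochberg adjusted p = 0.258). Without PAM 3 and PAM 4 it was 0.23 and passed (edgeR, adjusted p = 0.0339). Astrocyte markers were higher in the same PAM libraries, and their part in the values of Cpe was not tested.

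Scg5 encodes the chaperone that the Pcsk2 product needs to become active. The gene (chromosome 3, 105235050 to 105279462, minus strand) was at 132, 151, 146 and 204 CPM in PAM 1 to 4, against 187, 185, 182 and 178 CPM in vehicle 1 to 4. PAM 1 to 3 were below every vehicle library and PAM 4 was above all of them. For Scg5 the log2 fold change was -0.22 ± 0.12 (SE) with a 95% interval of -0.48 to 0.04 and missed the threshold (edgeR, Benjamini-Hochberg adjusted p = 0.242). Without PAM 4 it was -0.36 and passed (edgeR, adjusted p = 0.0157), as it did without both PAM 3 and PAM 4 (-0.36, adjusted p = 0.00875). With the length trend removed it was -0.34 and narrowly missed the threshold (edgeR, adjusted p = 0.0506). The count ratio of Scg5 to Pcsk2 was 0.799, 0.897, 0.854 and 1.12 in PAM 1 to 4, against 0.855, 0.871, 0.925 and 0.813 in vehicle 1 to 4. The groups overlapped, with a mean difference of 0.07 on the log2 scale (exact two-sided permutation test, p = 0.686, and the same adjusted over the 4 ratios). That difference was -0.03 without PAM 4.

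Pcsk1n encodes proSAAS, a precursor that binds and inhibits the Pcsk1 product. Its values are uncertain, because Rnor_6.0 carries 2 gene models under this symbol on chromosome X, 97393 bases apart on the same strand. Both have 3 exons, with a middle exon of 473 bases and introns of 406 and 2096 bases in each. The outer exons differ, with 331 and 135 bases in the model at 15425078 and 196 and 114 bases in the other. How reads that match both models were counted is not stated in the labels or file headers. The model at 15425078 to 15428518 had 43, 39, 44 and 57 counts in PAM 1 to 4, against 30, 28, 34 and 36 counts in vehicle 1 to 4. The other, at 15324400 to 15327684, had 6, 2, 4 and 3 counts in PAM 1 to 4, against 1, 6, 1 and 0 counts in vehicle 1 to 4, and was not tested. Scaled by library size, the first model was at 9.91, 8.32, 12.1 and 20.6 CPM in PAM 1 to 4, against 9.15, 7.71, 10.6 and 11.7 CPM in vehicle 1 to 4. PAM 4 alone stood well above the other libraries. The log2 fold change of 0.35 ± 0.31 (SE) had a 95% interval of -0.30 to 1.00 and missed the threshold (edgeR, Benjamini-Hochberg adjusted p = 0.471). It was 0.04 when PAM 4 was omitted and -0.0862 when PAM 3 was omitted as well. With the length trend removed the log2 fold change of Pcsk1n was 0.18.

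The ratio of Pcsk1n to Pcsk1 sets the inhibitor beside its enzyme. This count ratio was 0.289, 0.181, 0.484 and 0.467 in PAM 1 to 4, against 0.278, 0.207, 0.217 and 0.248 in vehicle 1 to 4. PAM 1, PAM 3 and PAM 4 were above all vehicle libraries and PAM 2 below them. The mean difference was 0.48 on the log2 scale (exact two-sided permutation test, p = 0.257; adjusted p = 0.686 over the 4 ratios). Without PAM 2 it was 0.77 (exact two-sided permutation test over 7 libraries, p = 0.0286, the smallest that this split allows), and it was -0.0475 without both PAM 3 and PAM 4, so it rests on those libraries. With the length trend removed the difference was 0.25 (exact two-sided permutation test, p = 0.371). The uncertain counting of the 2 Pcsk1n models applies to this ratio as well.

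Summed over the 11 identifiers, these transcripts took 0.554%, 0.657%, 0.58% and 0.631% of all counts in PAM 1 to 4, against 0.588%, 0.593%, 0.603% and 0.563% in vehicle 1 to 4. The sum therefore overlapped between the groups while its make-up differed. Scg2 held 29.5%, 30.5%, 25.6% and 23.4% of it in PAM 1 to 4, against 18.7%, 18.6%, 17.8% and 20.1% in vehicle 1 to 4. Vgf held 16.4%, 15.8%, 24.9% and 28.2% in PAM 1 to 4, against 29.0%, 30.8%, 31.6% and 28.3% in vehicle 1 to 4. In vehicle libraries Vgf was the largest part, whereas in PAM 1, PAM 2 and PAM 3 Scg2 and Cpe were each larger than Vgf.

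**Figure D3:**
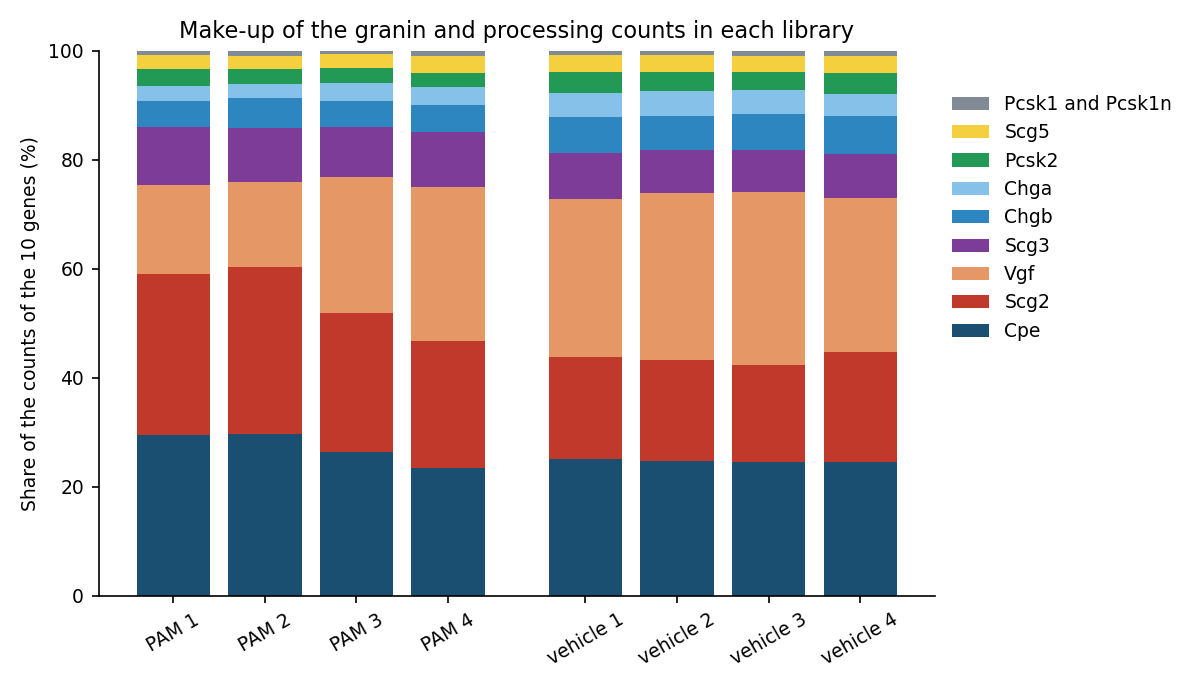
Share of each gene in the summed counts of the 10 genes (vertical axis, percent) in each PAM and vehicle library. Scg2 is a larger part in every PAM library (23.4% to 30.5%) than in any vehicle library (17.8% to 20.1%), and the Vgf part is smallest in PAM 1 and PAM 2.

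Set per exonic length (CPM per kb), so that genes can be compared, levels spanned 106-fold in PAM and 85.5-fold in vehicle libraries. In PAM libraries the order was Cpe (786 ± 61.0, SD, n = 4), Scg2 (680 ± 67.0), Vgf (496 ± 181), Scg3 (278 ± 26.7), Scg5 (133 ± 26.5), Chgb (120 ± 14.4), Chga (97.0 ± 17.9), Pcsk2 (36.8 ± 1.59), Pcsk1n (13.5 ± 5.80) and Pcsk1 (7.40 ± 1.93). In vehicle libraries it was Cpe (704 ± 18.4), Vgf (674 ± 54.7), Scg2 (462 ± 14.1), Scg3 (223 ± 4.16), Chgb (154 ± 3.95), Scg5 (154 ± 3.27), Chga (138 ± 9.22), Pcsk2 (45.5 ± 2.25), Pcsk1n (10.4 ± 1.84) and Pcsk1 (8.23 ± 1.54). Neighbours whose libraries overlapped were Cpe with Scg2, Scg2 with Vgf, Scg5 with Chgb, Chgb with Chga, and Pcsk1n with Pcsk1 in PAM libraries. In vehicle libraries they were Cpe with Vgf, Chgb with Scg5, and Pcsk1n with Pcsk1. The place of Pcsk1n is uncertain, because how reads that match both of its gene models were counted is not stated. Scg2 thus stood below every Vgf value in vehicle libraries, and within the Vgf range or above it in PAM libraries.

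**Figure D4:**
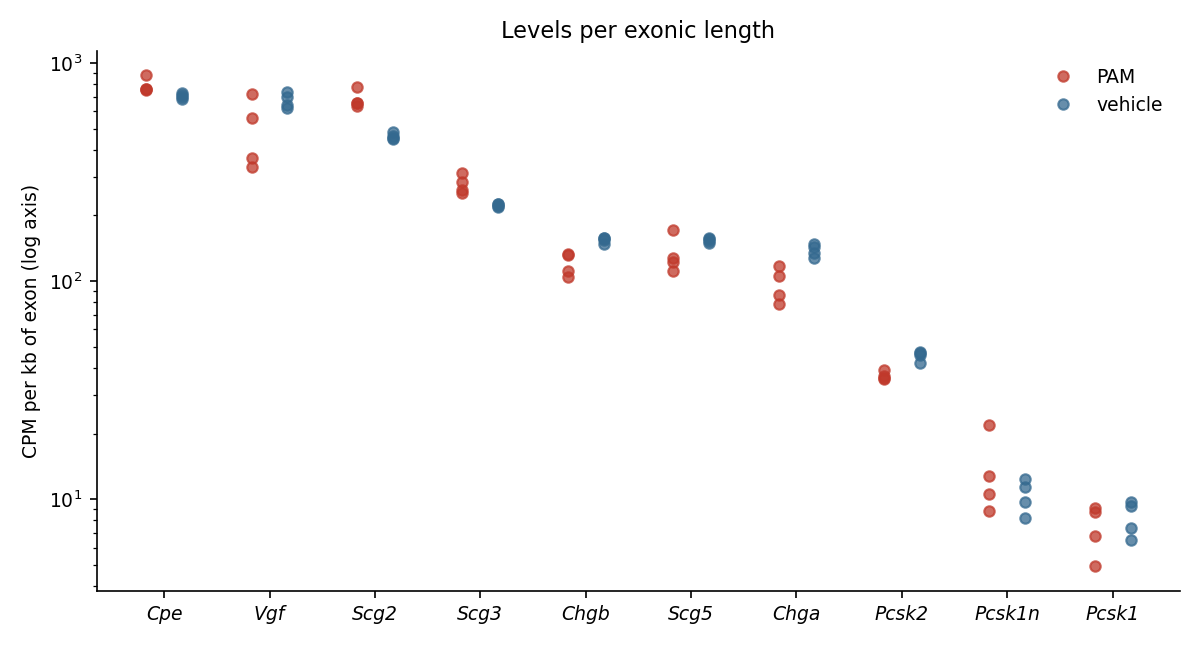
Level per exonic length (CPM per kb, log axis) of the 10 genes, ordered by the vehicle mean, with 1 point per PAM or vehicle library. Cpe, Vgf and Scg2 are highest and Pcsk1n and Pcsk1 lowest in both groups. The level of Pcsk1n is uncertain, because it comes from 1 of 2 gene models and the counting of reads that match both is not stated.

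Of 13 other proprotein convertases and peptide-finishing enzymes, 10 were tested, 1 rose and 0 fell, against 9% of all tested genes called higher and 9.89% called lower. Their median log2 fold change was -0.08 against 0.02 over all genes tested, with single values from -0.57 (Qpct) to 0.62 (Pcsk5). The riser was Pcsk5, a broadly expressed convertase, at 67.8 ± 6.24 CPM in PAM and 44.2 ± 11.6 CPM in vehicle libraries (log2 fold change 0.62 ± 0.17 SE; edgeR, Benjamini-Hochberg adjusted p = 0.0175, and 0.0573 without PAM 3). Without PAM 3 and PAM 4 its log2 fold change was 0.63. The amidating enzyme gene Pam, whose symbol only resembles the name of the compound class and which was chosen after its value was seen, was at 1024 ± 78.6 CPM in PAM and 1158 ± 48.5 CPM in vehicle libraries, and it missed the threshold (edgeR, adjusted p = 0.217).

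Of 23 genes for the formation, sorting and release of dense-core vesicles, 22 were tested, 2 rose and 6 fell, against 9% and 9.89% of all tested genes. Their median log2 fold change was -0.19, against 0.02 over all genes tested. Syt4, a synaptotagmin found on dense-core vesicles, rose to 755 ± 112 CPM in PAM, against 461 ± 29.9 CPM in vehicle libraries (edgeR, Benjamini-Hochberg adjusted p = 2.29e-04). Vti1a, a SNARE of the Golgi with few counts, was also called. It was at 9.58 ± 3.99 CPM in PAM and 4.06 ± 0.627 CPM in vehicle libraries, and it did not pass edgeR without PAM 3 and PAM 4 (Benjamini-Hochberg adjusted p = 0.158) or without vehicle 1, 2, 3 or 4 or PAM 4, nor under limma-voom (adjusted p = 0.0605) or with the replicate number as a block (edgeR, adjusted p = 0.057). The falls with the smallest p were those of Hid1, which acts in vesicle maturation, Syt7, a calcium sensor of release, Ptprn2, a vesicle membrane protein, and the vesicle GTPase gene Rab3a. Hid1 had a log2 fold change of -0.55 ± 0.11, Syt7 of -1.46 ± 0.31, Ptprn2 of -0.49 ± 0.11 and Rab3a of -0.70 ± 0.15 (SE), at edgeR adjusted p-values of 0.00131 to 0.0036. Without PAM 3 and PAM 4, Syt4 was at 0.67, Hid1 at -0.54, Syt7 at -1.28, Ptprn2 at -0.44 and Rab3a at -0.51 on the log2 scale.

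Of 25 neuropeptide and neurotrophin precursors, the substrates of these enzymes, 20 were tested, 4 rose and 0 fell, with a median of -0.02. Over all tested genes 18.9% were called, 9% higher and 9.89% lower. The share called in either direction is thus near that of all genes, but all 4 calls here were rises. The enkephalin precursor gene Penk was at 125 ± 9.19 CPM in PAM and 56.2 ± 5.92 CPM in vehicle libraries (edgeR, adjusted p = 5.01e-06). Adcyap1, the precursor of the peptide PACAP, was at 348 ± 28.8 CPM in PAM and 163 ± 23.2 CPM in vehicle libraries (edgeR, adjusted p = 6.61e-06). The other 2 were the orexin precursor gene Hcrt and Bdnf. Hcrt was at 9.10 ± 1.53 CPM in PAM and 0.83 ± 0.275 CPM in vehicle libraries. It had few counts (154 over the 8 libraries), and its vehicle mean lies within the 0.815 to 0.945 CPM that 0 counts would allow in vehicle libraries. The size of the Hcrt fold change is therefore uncertain. Bdnf was at 354 ± 51.8 CPM in PAM and 261 ± 54.3 CPM in vehicle libraries. Bdnf did not pass edgeR without PAM 3 and PAM 4 (Benjamini-Hochberg adjusted p = 0.102), nor without vehicle 1, 2 or 4, PAM 3 or PAM 4 (0.027 to 0.129 over the 8 fits without 1 library). Log2 fold changes without PAM 3 and PAM 4 were 1.21 for Penk, 1.01 for Adcyap1, 3.56 for Hcrt and 0.35 for Bdnf.

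**Figure D5:**
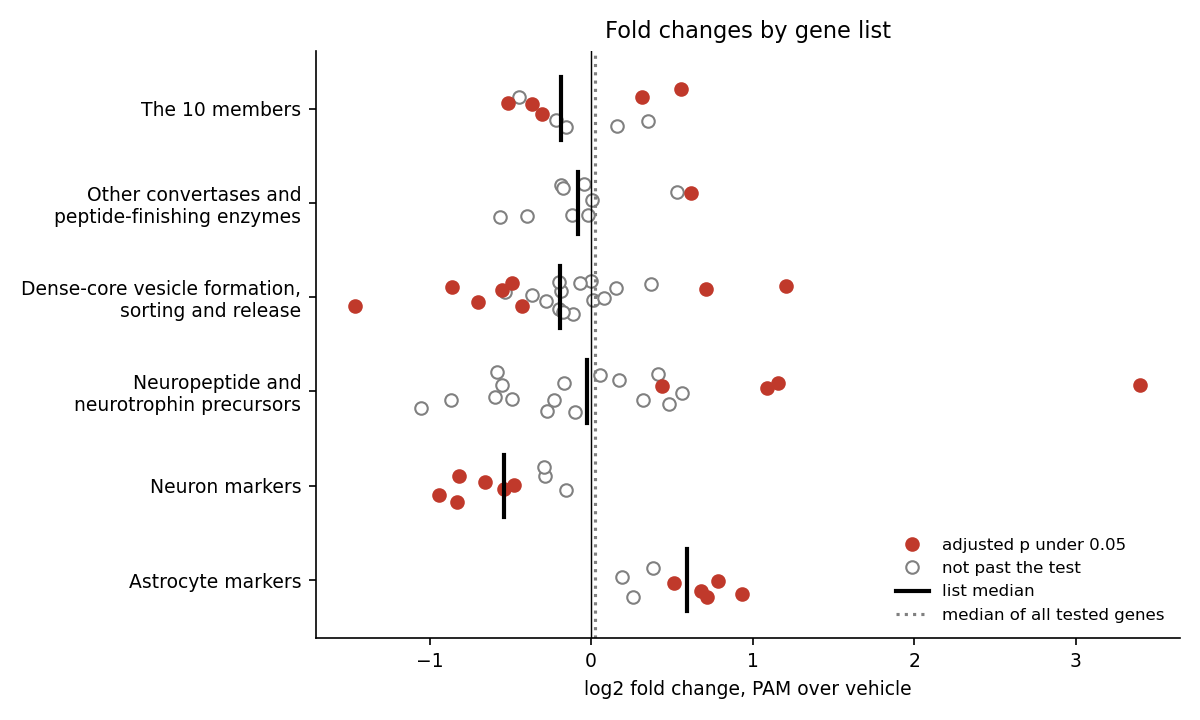
Log2 fold change of PAM over vehicle (horizontal axis) for each tested gene of 6 lists; filled points passed an adjusted p of 0.05, bars are list medians and the dotted line is the median of all tested genes. The 10 genes spread on both sides of 0, from -0.51 to 0.56, while the neuron markers have a median of -0.54 and the astrocyte markers one of 0.60.

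Markers of other cell types moved in the same libraries. Ependymal and choroid plexus markers rose in 5 of 5 tested genes (summed level 146 to 229 CPM in PAM and 40.1 to 57.3 CPM in vehicle libraries). Oligodendrocyte markers rose in 5 of 8 (1258 to 1631 CPM in PAM and 817 to 928 CPM in vehicle libraries). Microglial markers were at 7.93 to 11.3 CPM in PAM and 6.61 to 27.6 CPM in vehicle libraries, summed over the 3 of 6 that were matched. Of 9 neuroendocrine and endocrine markers, Th and Pomc were matched, at a summed 2.54 to 11.9 CPM in PAM and 6.71 to 9.39 CPM in vehicle libraries. Th, with 110 counts over the 8 libraries, fell from 5.94 CPM in vehicle to 2.22 CPM in PAM (edgeR, Benjamini-Hochberg adjusted p = 0.0354). Pomc was not tested and had means of 4.67 CPM in PAM and 1.79 CPM in vehicle libraries. Chga, Chgb and Pcsk2 fell beside a neuron marker median of -0.54, and Scg2 and Scg3 rose beside an astrocyte marker median of 0.60; the part of cell make-up in these results was not tested.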

How the data were processed

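Polyadenylated RNA of 4 PAM and 4 vehicle libraries was sequenced on an Illumina GAIIx, per the labels. Raw whole-number counts per gene were deposited, 1 featureCounts table for each library, per the file headers. The submitters' processing notes name STAR, featureCounts, DESeq2, DESeq and the build Rnor_6.0; which versions were used, whether counting was stranded and how multi-mapped reads were handled is not stated. A table of the authors' own comparison gives, per the file headers, p-values with their adjusted values, log2 fold changes and the mean signal of each group. Symbols came from it.

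The analysis used edgeR 4.0.16 in R 4.3.3: filterByExpr, TMM scaling, the robust quasi-likelihood F test with group as the only term, and Benjamini-Hochberg adjustment over all 11740 genes. Standard errors (SE) were obtained as log2 fold change over the root of F. CPM uses TMM-scaled library sizes. No gene of the 10 shares exon bases with another annotated gene. Ratios of raw counts were tested by exact permutation over the 70 splits of 8 libraries. The genes, lists and tests were chosen with earlier results of these data known. From each other list, genes past the test were named, at most 4 per direction with the smallest p. Alternatives were DESeq2 1.42.0, limma-voom (limma 3.58.1), RLE and upper-quartile scaling, other low-count filters (none, or a mean of at least 1 CPM), the replicate number as a block, subtraction of a loess trend (span 0.5) with exonic length per library, each library left out, and PAM 3 with PAM 4 left out. Summing both Pcsk1n models was added after seeing the data. No pair of replicates was a duplicate: chi-square per degree of freedom was 2.83 to 4.19 for vehicle pairs and 4.66 to 16.1 for PAM pairs. It was 4.66 for PAM 1 with PAM 2 and 6.43 for PAM 3 with PAM 4. Between those 2 sets of PAM libraries it was 7.96 to 16.1. The procedure was tested on simulated data.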

Additional observations from a re-analysis of the deposited data

Results flagged for a closer look

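Among 30 groups of 4 values (the 11 identifiers and the 4 ratios in each group of libraries), 2 held a library far from the other 3 by Dixon's 95% gap test; chance flags about 1 in 20 such groups. Both were PAM 2 at the high end: Cpe at 1830 CPM (gap of 0.932 of the range) and Scg2 at 1876 CPM (gap of 0.837 of the range). Without PAM 2 the log2 fold change of Cpe was 0.10 and that of Scg2 was 0.48.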

How the results depend on the processing

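Scg2 and Chga kept their call and direction in all 17 alternative fits, with log2 fold changes of 0.48 to 0.65 and -0.73 to -0.42. The count of called genes among the 10 was 5, and ran from 2 to 6 (1 to 2 higher and 1 to 5 lower) when 1 library was left out. Without both PAM 3 and PAM 4 it was 8, with 3 higher and 5 lower, as Vgf, Scg5 and Cpe passed, against 23.7% of all genes tested there; the cause was not tested. The labels do not say whether the replicate numbers pair the libraries. Deviations of same-numbered libraries correlated at -0.06 to 0.07, against -0.15 to 0.12 for unlike numbers, and 2 of 4 PAM libraries correlated best with their own number. So few correlations cannot settle whether the libraries are paired. With the replicate block, 4 of the 10 were called, 1 higher (Scg2) and 3 lower, as Scg3 and Pcsk2 did not pass and Vgf did, and 2064 of all genes, against 2218. Over all alternatives that count ran from 1527 to 2900. The median log2 fold change of all genes was 0.05 under upper-quartile scaling and 0.02 under RLE or TMM scaling. Pcsk1n changed sign without both PAM 3 and PAM 4 (-0.0862), and so did its ratio to Pcsk1 (-0.0475), which ran from 0.30 to 0.77 with 1 library left out. The ratio of Scg5 to Pcsk2 was -0.0309 without both and -0.12 with the length trend removed, and ran from -0.0267 to 0.14 with 1 library left out. Summing both Pcsk1n models gave 0.38 for the gene and 0.50 for its ratio to Pcsk1. Of 358 values of the 21 named genes, 313 kept direction and side of the threshold, 36 lost their call, 8 gained one and 1 changed sign. Pcsk1n rests on 28 to 57 counts per library, and its 95% interval, in which PAM 4 stands apart, allows between 0.81-fold and 2.005-fold the vehicle level.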
